A study of Mus musculus with 32 samples.

Results

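The genes described here are 37 mouse genes whose products sense, signal or join DNA double-strand breaks in B cells during immunoglobulin class switching. They were taken as a fixed list by function: the 53BP1 and shieldin arm, classical end joining, break sensing and signalling, alternative end joining, and other factors known in switching. The count tables hold 43345 mouse genes, of which 36 members have a row. The RNA level of Shld3, a shieldin subunit, was not analysed here. RNA-seq had been made from 2 kinds of B cell that lack or carry ELOF1, a factor that travels with elongating RNA polymerase II and takes part in transcription-coupled repair. CH12F3 cells derive from a mouse B lymphoma and can be induced to change from IgM to IgA in culture. Its Elof1 knockout cells carried an empty vector (ELOF1-deficient) or an ELOF1 construct (ELOF1-proficient). They were treated with anti-CD40 antibody, IL-4 and TGF-β for 1.5 days (4 vector and 4 ELOF1 libraries), 3 days (2 and 2) or 7 days (2 and 2). All CH12F3 libraries therefore share the knockout, and the ELOF1 groups are add-back cells rather than unmodified cells. The other system was primary spleen B cells of Elof1 conditional knockout (cKO) and wild-type (WT) mice, cultured with IL-4 and LPS for 2.5 days (5 cKO and 5 WT libraries) or 3.5 days (3 and 3). The sources used here do not give the number of knockout clones, the Cre line, the age of the mice or any pooling. Nor do the sources state that replicates came from separate cultures or animals, so each p-value measures the spread between these libraries, which may be technical.

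During class switching, the deaminase AID starts lesions in switch regions that are turned into double-strand breaks. The MRE11-RAD50-NBS1 complex senses a break, ATM phosphorylates histone H2AX and its neighbours, and MDC1, RNF8 and RNF168 build the chromatin platform that recruits 53BP1. With RIF1 and shieldin, 53BP1 limits resection of the ends, and the Ku dimer, XRCC4 and DNA ligase IV join them by classical end joining. When that route is limiting, PARP1, the XRCC1-LIG3 complex, polymerase theta and the resection factor CtIP serve alternative end joining.

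The promoter sequences of Shld2, Ercc6l2 and Xrcc6 are shown because these members are described most closely below. In spleen, Shld2 was called between genotypes, close to the threshold, and Xrcc6 between culture days. Ercc6l2 was called between genotypes only under some of the other settings tried, with opposite signs in the 2 systems. Each is the 250 bases before the RefSeq transcription start in GRCm38.p6, written 5′ to 3′ on the strand of the gene. For Xrcc6 the RefSeq start lies 28.5 kb inside the gene as the GENCODE vM21 annotation draws it, where another transcript starts further upstream. Capitals mark matches to the E2F motif TTTNNCGC or the NRF1 motif GCGCNTGCG on either strand.
Shld2, chr14:34310518-34310767, minus strand: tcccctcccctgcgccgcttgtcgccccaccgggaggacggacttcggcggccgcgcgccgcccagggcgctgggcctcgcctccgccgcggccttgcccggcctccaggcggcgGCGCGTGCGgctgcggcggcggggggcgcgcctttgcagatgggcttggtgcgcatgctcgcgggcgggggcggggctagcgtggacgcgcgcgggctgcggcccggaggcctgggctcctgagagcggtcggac
Ercc6l2, chr13:63814990-63815239, plus strand: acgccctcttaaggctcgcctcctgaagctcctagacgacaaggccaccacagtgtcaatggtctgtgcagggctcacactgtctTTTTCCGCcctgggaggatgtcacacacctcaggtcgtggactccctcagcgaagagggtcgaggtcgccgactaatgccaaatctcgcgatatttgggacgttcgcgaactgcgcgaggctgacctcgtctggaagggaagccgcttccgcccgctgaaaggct
Xrcc6, chr15:82016119-82016368, plus strand: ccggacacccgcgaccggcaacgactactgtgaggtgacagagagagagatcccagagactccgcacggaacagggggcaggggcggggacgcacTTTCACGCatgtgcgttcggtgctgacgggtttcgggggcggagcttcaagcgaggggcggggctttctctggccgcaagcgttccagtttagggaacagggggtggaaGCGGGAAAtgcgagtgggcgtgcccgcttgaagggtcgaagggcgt
The Shld2 window had a GC content of 81.2% and, of the 6 motifs searched, held 1 NRF1 match, which begins 135 bases before the start on the strand of the gene. The Ercc6l2 window had a GC content of 59.6% and 1 E2F match, which begins 165 bases before the start on the strand of the gene. The Xrcc6 window had a GC content of 65.2% and 2 E2F matches, at 155 bases before the start on the strand of the gene and at 46 bases on the opposite strand. Windows were found for 30 of the 37 members, Shld3 included, and for 27025 genes in all. Some genes have several starts, so that members had 38 windows and all genes 32851. A gene was counted once where any of its windows held the motif on either strand. The E2F motif was found for 5 of the 30 members (Chek2, Ercc6l2, Mdc1, Shld1 and Xrcc6), which is 16.7%, against 4.94% of all genes. The NRF1 motif was found for 6 members (Atm, Lig4, Pagr1a, Paxip1, Shld2 and Shld3), which is 20%, against 5.88% of all genes. The NFY motif CCAAT was found for 11 members, which is 36.7%, against 37.5% of all genes. The CHR motif TTTGAA and the ETS motif CCGGAAGT were found for 2 members each, against 18.3% and 3.23% of all genes. The YY1 motif AAGATGGCG was found for 0 members and for 0.71% of all genes. The shares of all genes cover every gene with a window, not only the genes tested, and are not matched for GC content. A difference from them can therefore not be read as particular to the members. These matches describe letters in the windows and do not show binding.

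The libraries held 7112130 to 15550200 mouse counts in CH12F3 and 9807560 to 16359500 in spleen B cells. Members took 0.298% to 0.404% of the counts in CH12F3 and 0.260% to 0.405% in spleen, with a median of 405 to 983 counts per member in a CH12F3 library and of 435 to 849.5 in a spleen library. Elof1, the targeted gene, is given in CPM (read counts relative to the TMM-scaled library size), the level scale used unless TPM is named. It was at 0.966 to 5.49 CPM in vector and 140 to 681 CPM in ELOF1 libraries, and at 1.27 to 7.65 CPM in cKO and 10.99 to 55.1 CPM in WT libraries. In each system every deficient library was below every proficient library, in the direction of the labels. B cell markers (8 of 8 detected) summed to 1358 to 1619 CPM in vector and 1117 to 1299 CPM in ELOF1 libraries at day 1.5, and to 3470 to 4859 CPM in cKO and 3208 to 4258 CPM in WT libraries at day 2.5. In the same groups 9 T and NK cell markers summed to at most 7.61 CPM and 5 erythroid markers to at most 2.24 CPM. The 9 myeloid markers summed to 68.4 to 125 CPM in vector and 71.5 to 97.5 CPM in ELOF1 libraries, and to 18.9 to 28.8 CPM in cKO and 11.7 to 29.0 CPM in WT libraries at day 2.5, with S100a8 and S100a9 at 0 in all of them, and 1 of 5 tested was called higher in cKO cells. Of 20 S phase genes, 3 were called higher in cKO cells at day 2.5 and 0 at day 3.5, against 5.18% and 2.07% of all genes called in either direction. The part of these sums in the results was not tested. In bulk RNA, fewer cells of a type and less RNA per cell cannot be told apart.

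Levels were compared between genes in TPM, which divides counts by exon length. In ELOF1 CH12F3 cells at day 1.5 the members tested had a median of 24.2 TPM, against 15.8 TPM for all genes tested, and 26 of 35 lay above that median of all genes. In WT spleen B cells at day 2.5 the median was 19.02 TPM for members, against 15.1 TPM for all genes tested, with 24 of 36 above it. H2afx, which encodes the histone variant phosphorylated beside breaks, was the highest member at 635 TPM in CH12F3 and 872 TPM in spleen. Parp1, a nick and break sensor, had the highest level of the alternative end joining genes, at 253 TPM in CH12F3 and 164 TPM in spleen. Classical end joining genes were lower, at 2.01 TPM for Lig4, the ligase of the final step, to 41.4 TPM for Xrcc5, which encodes Ku80, in CH12F3. In spleen the classical range was 3.49 TPM for Lig4 to 28.3 TPM for Xrcc6, which encodes Ku70. The 53BP1 and shieldin genes lay between 3.38 TPM (Shld1, a shieldin subunit) and 33.7 TPM (Rif1, the 53BP1 partner) in CH12F3, and between 3.19 TPM (Shld1) and 46.8 TPM (Paxip1, which encodes the 53BP1-associated protein PTIP) in spleen. Of the signalling genes, Atr, the kinase of single-stranded DNA responses, was lowest per length, at 10.4 TPM in CH12F3 and 5.81 TPM in spleen. The lowest member of all was Hmces, a shield for abasic sites, at 0.195 TPM in CH12F3 and 1.42 TPM in spleen. Hmces had 0 to 8 counts per CH12F3 library and was left out of the CH12F3 tests by the filter on low counts. The remaining 35 members were tested in CH12F3, and all 36 in spleen.

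The 2 systems were counted in separate tables and received different stimuli, so their levels are set side by side without a test. The libraries of the ELOF1 CH12F3 cells and of the WT spleen cells did not overlap in TPM for 14 of 36 members. The share of all genes is not given here, for this count or for the 2-fold counts that follow. None of these counts can therefore be called many or few. The members at least 2-fold higher in CH12F3 numbered 6. Among them, Prkdc, the DNA-PK catalytic subunit, was at 28.2 TPM in CH12F3 and 11.8 TPM in spleen, and Trp53bp1, which encodes 53BP1, was at 23.1 and 9.94 TPM. Shld2 was at 15.6 TPM in CH12F3 and 7.41 TPM in spleen. The others, named after their values were seen, were Xrcc1 (150 TPM in CH12F3 and 64.4 TPM in spleen), Xrcc5 (41.4 and 19.5 TPM) and Rnf168 (32.3 and 15.9 TPM). The 2 members at least 2-fold higher in spleen were Polm, a polymerase that fills gaps at ends, at 7.08 TPM in CH12F3 and 16.7 TPM in spleen, and Hmces. The plot of TPM levels shows most members within a 2-fold range of each other in the 2 systems.

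**Figure D1:**
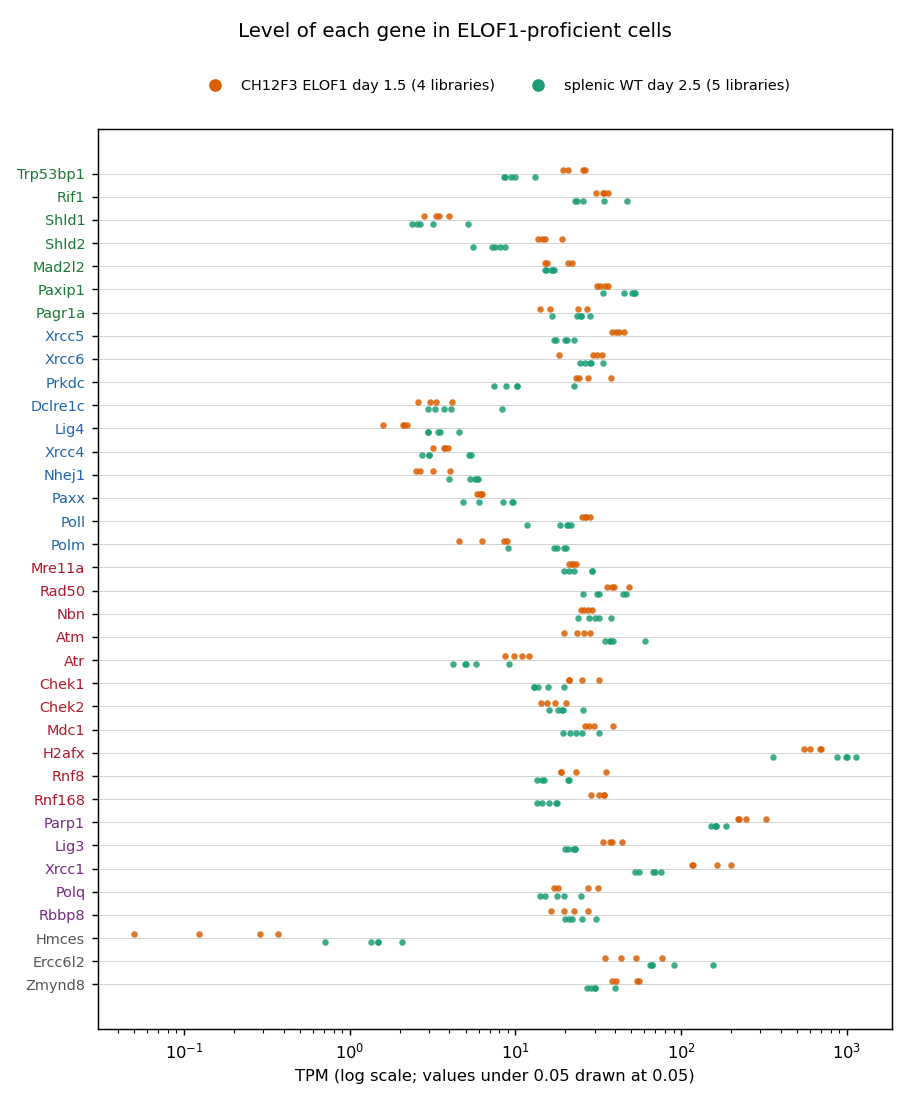
TPM of each member in each library, on a log axis, in ELOF1 CH12F3 cells at day 1.5 (orange, 4 libraries) and WT spleen B cells at day 2.5 (green, 5 libraries). Values under 0.05 are drawn at 0.05. H2afx was highest at 635 TPM in CH12F3 and 872 TPM in spleen, and Hmces was lowest at 0.195 and 1.42 TPM.

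The question of the genotype comparisons is whether loss of ELOF1 went with a different supply of end joining and break signalling transcripts. In edgeR's quasi-likelihood test with Benjamini-Hochberg adjustment over all mouse genes tested, 0 of 35 members passed an adjusted p of 0.05 in CH12F3 at day 1.5, day 3 or day 7. Of all genes tested, 1.15%, 0.00704% and 0.0352% passed on these days. At an unadjusted p under 0.05, 3 members (2 higher, 1 lower) passed at day 1.5 and 0 at day 3 and day 7, against 13.4%, 4.15% and 5.7% of all genes. By DESeq2's Wald test 0 members passed on any CH12F3 day, against 3.14%, 0.0845% and 0.183% of all genes. In spleen at day 2.5, 1 of 36 members passed, Shld2, which was lower in cKO cells, against 5.18% of all genes in either direction and 2.36% lower. At an unadjusted p under 0.05, 6 members passed there (3 higher, 3 lower), against 18% of all genes. At day 3.5, 0 of 36 passed, against 2.07% of all genes, and 1 passed at an unadjusted p under 0.05, against 13.5% of all genes. By DESeq2, 2 members passed at day 2.5 (Hmces higher, Shld2 lower), against 7.71% of all genes, and 0 passed at day 3.5, against 4.24%. The members' share was thus close to or below that of all genes. The median log2 fold change of members was -0.03, -0.01 and 0.04 at the CH12F3 days in order, and -0.02 and -0.05 at the spleen days, against medians of all genes between -0.005 and 0.013. Those values use TMM scaling. With scaling by the fly spike-in, added per cell, the members' medians were -0.11, -0.20 and -0.10 at the CH12F3 days in order. They were -0.16 and -0.34 at the spleen days. The medians of all genes were then -0.08, -0.19 and -0.14 in CH12F3, and -0.14 and -0.29 in spleen. Averaged over 3 days in CH12F3, 0 of 35 passed (2.8% of all genes), with 3 at an unadjusted p under 0.05 (17.2% of all genes). By DESeq2 it was 0 members, against 5.59% of all genes. Averaged over 2 days in spleen, Shld2 again was the 1 member called, against 10.9% of all genes and 5.34% lower, and 8 members (5 higher, 3 lower) had an unadjusted p under 0.05, against 23.5% of all genes. By DESeq2, 3 members passed over the spleen mean (Rbbp8 higher, Shld2 and Ercc6l2 lower), against 13.7% of all genes. The libraries of the 2 genotypes did not overlap for 0 of 35 members at CH12F3 day 1.5, where this held for 3.71% of all genes, for 11 at day 3 (32.4% of all genes) and for 10 at day 7 (32.8%). In spleen this held for 0 of 36 at day 2.5 (3.12%) and 5 at day 3.5 (25.1%).

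The intervals say how large a difference these data leave room for. The 95% interval of the fold change lay wholly within 1.5-fold in either direction for 27 of 35 members in CH12F3 at day 1.5, against 56.3% of all genes. It did so for 19 members at day 3 (46.1% of all genes) and 20 at day 7 (44.9%). In spleen it did so for 29 of 36 members at day 2.5 (58.7%) and 27 at day 3.5 (49.6%). Averaged over days, this was true of 31 of 35 members in CH12F3 (66.3%) and 32 of 36 in spleen (65.2%). The members whose interval averaged over days reached past 1.5-fold were Xrcc6, Nhej1, Polm and Ercc6l2 in CH12F3 and Shld1, Xrcc4, Paxx and Hmces in spleen. The median SE of a member's log2 fold change was 0.13 in CH12F3 at day 1.5 and 0.11 in spleen at day 2.5, the best replicated days.

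**Figure D2:**
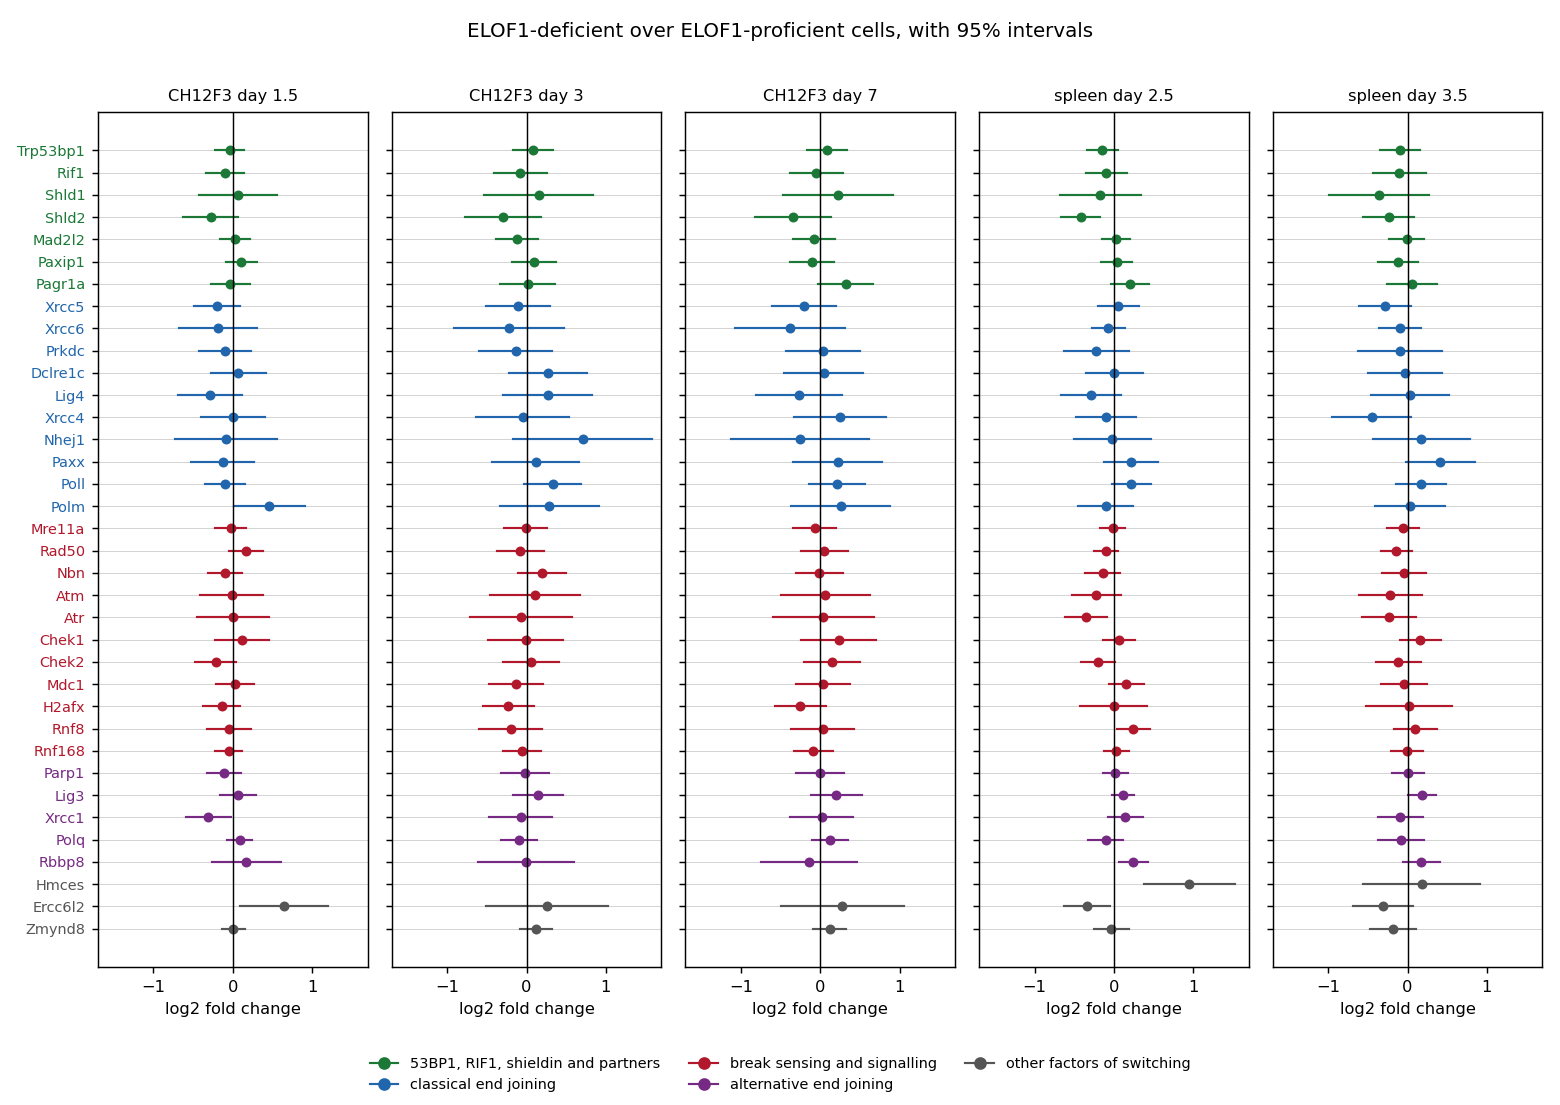
Log2 fold change (ELOF1-deficient over ELOF1-proficient) of 36 members in the 5 single-day comparisons, with 95% intervals, coloured by role. Most intervals hold 0. Shld2 was below 0 in all 5 comparisons, and Ercc6l2 was above 0 in CH12F3 and below 0 in spleen.

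In the 53BP1 and shieldin arm, Shld2 was the member called, in spleen. It encodes the shieldin subunit that carries single-stranded DNA binding domains (chr14:34237041-34310503 in mm10). At day 2.5 its levels were 8.23, 9.94, 7.59, 11.3 and 10.3 CPM in cKO libraries 1 to 5, against 12.2, 9.5, 13.0, 13.4 and 15.1 CPM in WT libraries. All WT libraries but library 2 lay above every cKO library, so the groups overlapped through that library. The log2 fold change was -0.42 ± 0.12 (SE, adjusted p = 0.0485 in edgeR), with a 95% interval of -0.67 to -0.17. At day 3.5 it was at 11.5, 11.1 and 11 CPM in cKO, against 14.2, 12.2 and 13.3 CPM in WT, with no overlap. The log2 fold change there was -0.24 ± 0.15 and its interval of -0.56 to 0.08 held 0. The fold changes of the 2 days did not differ in edgeR (difference of 0.18 ± 0.19 on the log2 scale, adjusted p = 1). The mean over both days was -0.33 ± 0.095 (adjusted p = 0.0340). That call was lost without cKO library 1 or 3 or WT library 1, 3 or 5 of day 2.5, and without any cKO library or WT library 1 or 3 of day 3.5, with adjusted p of 0.0129 to 0.182 over the alternatives.

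In CH12F3, Shld2 at day 1.5 was at 17.3, 20.1, 19.5 and 26.9 CPM in vector libraries, against 23.2, 25.4, 22.2 and 30.8 CPM in ELOF1 libraries. At day 3 it was at 18 and 26.6 CPM, against 24.0 and 30.8 CPM, and at day 7 at 20.2 and 22 CPM in vector, against 24.4 and 29.2 CPM in ELOF1. The groups overlapped at day 1.5 and day 3 but not at day 7. The log2 fold changes were -0.28 ± 0.16, -0.30 ± 0.22 and -0.34 ± 0.22, and none passed alone. The spleen call rests on few counts (88 to 183 per library) and sits at the threshold. Within the second of 2 series of library numbers it was -0.44 (adjusted p = 0.118) and within the first -0.42 (adjusted p = 1), and over the alternatives tried the adjusted p ran from 0.0167 to 1. It was lost when cKO library 1, 3, 4 or 5 or WT library 1, 3, 4 or 5 was left out, with log2 fold changes of -0.45 to -0.37.

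The rest of the arm showed smaller differences. Trp53bp1 averaged 149 ± 17.3 CPM in vector and 155 ± 25.7 CPM in ELOF1 cells (SD, n = 4 each) at day 1.5, and 62.8 ± 9.45 CPM in cKO and 69.5 ± 11.9 CPM in WT cells (n = 5 each) at day 2.5. Its log2 fold changes ran from -0.14 to 0.08 over the 5 comparisons. Rif1 averaged 158 ± 32.8 CPM in vector and 168 ± 7.63 CPM in ELOF1 cells, and 147 ± 44.2 CPM in cKO and 159 ± 50.6 CPM in WT cells on the same days. Its log2 fold changes were between -0.10 and -0.05. Pagr1a, which encodes a PTIP partner, had the smallest unadjusted p of the members at CH12F3 day 7. It was at 44.8 and 37.2 CPM in vector and 33.9 and 31.8 CPM in ELOF1 libraries, with no overlap and a log2 fold change of 0.32 ± 0.16 (adjusted p = 0.894 in edgeR). Pagr1a shares 73.9% of its exon bases on the same strand with Pagr1b and Prrt2, so its counts are uncertain. Shld1, Mad2l2, the shieldin subunit REV7, and Paxip1 had log2 fold changes between -0.36 and 0.23. Of the 7 genes of the arm, 3 had positive and 4 negative fold changes at CH12F3 day 1.5, and at spleen day 3.5 the split was 1 and 6, with a median of -0.10. At spleen day 2.5 the split was more even, with Mad2l2, Paxip1 and Pagr1a positive and the others negative.

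No classical end joining gene passed edgeR's test between genotypes on any day with all libraries and no replicate block. Prkdc averaged 165 ± 32.3 CPM in vector and 175 ± 38.4 CPM in ELOF1 cells at day 1.5 (SD, n = 4 each), and 64.1 ± 23.6 CPM in cKO and 76.6 ± 37.7 CPM in WT cells at day 2.5 (n = 5 each). Lig4 averaged 3.32 ± 0.527 CPM in vector and 4.06 ± 0.614 CPM in ELOF1 cells, and 6.06 ± 2.01 CPM in cKO and 7.35 ± 1.46 CPM in WT cells. Xrcc4, the ligase IV scaffold, averaged 7.21 ± 1.28 CPM in vector and 7.22 ± 0.68 CPM in ELOF1 cells, and 7.47 ± 2.16 CPM in cKO and 8.07 ± 2.73 CPM in WT cells. The differences of Prkdc and Xrcc4 were smaller than the SD within the groups, and those of Lig4 did not pass the test. Xrcc6 averaged 51.6 ± 11.1 CPM in vector and 59.1 ± 14.1 CPM in ELOF1 cells at day 1.5, and 59.7 ± 6.78 CPM in cKO and 62.8 ± 8.14 CPM in WT cells at day 2.5. Its log2 fold changes were negative in all 5 comparisons, from -0.38 at CH12F3 day 7 to -0.07 at spleen day 2.5. Poll, a gap-filling polymerase, had the smallest unadjusted p at CH12F3 day 3. It was at 31.2 and 32.6 CPM in vector and 25.2 and 25.7 CPM in ELOF1 libraries, with a log2 fold change of 0.33 ± 0.17 (adjusted p = 1 in edgeR). At day 1.5 its groups overlapped, at 19.8, 25.9, 32.9 and 32 CPM in vector and 27.3, 30.5, 31.1 and 28.5 CPM in ELOF1 libraries. Of the 10 classical genes, 3 had positive and 7 negative fold changes at CH12F3 day 1.5, and 5 were on each side at spleen day 3.5. At spleen day 2.5 Xrcc5, Dclre1c, Paxx and Poll were positive and the others negative. The widest single value was 0.71 for Nhej1, which encodes XLF, at CH12F3 day 3, a low-count gene whose interval held 0.

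Break sensing and signalling genes likewise had none past the threshold in that fit. Atm averaged 117 ± 23 CPM in vector and 118 ± 16.4 CPM in ELOF1 cells at day 1.5 (SD, n = 4 each), and 181 ± 31.8 CPM in cKO and 212.7 ± 51 CPM in WT cells at day 2.5 (n = 5 each). Its log2 fold change was -0.22 on both spleen days and passed on neither. Chek1, the kinase effector of ATR, averaged 58.6 ± 12.1 CPM in vector and 54.4 ± 10.7 CPM in ELOF1 cells, and 36 ± 6.71 CPM in cKO and 34.4 ± 6.74 CPM in WT cells. Atr, named after its values were seen, had a log2 fold change of -0.35 in spleen at day 2.5. It was at 50.04, 44.3, 45.3, 67.6 and 52.7 CPM in cKO and 48.3, 58.4, 58.8, 103 and 68.2 CPM in WT libraries, where library 4 was highest in both groups. The remaining signalling genes, which are the MRN subunit genes, Chek2, Mdc1, H2afx, Rnf8 and Rnf168, had log2 fold changes between -0.25 and 0.25. Rnf8 shares 48.5% of its exon bases on the same strand with Gm28043. Of the 11 signalling genes, 7 had negative fold changes at CH12F3 day 1.5 and at spleen day 2.5, and 8 at CH12F3 day 3 and spleen day 3.5. CH12F3 day 7 went the other way, where only Mre11a, Nbn, H2afx and Rnf168 were negative and the other signalling genes were positive.

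No alternative end joining gene passed the test on any day. Parp1 averaged 584 ± 25.8 CPM in vector and 636 ± 138 CPM in ELOF1 cells at day 1.5 (SD, n = 4 each), and 435 ± 36.6 CPM in cKO and 430 ± 37.8 CPM in WT cells at day 2.5 (n = 5 each). Its log2 fold changes lay between -0.11 and 0.02. Polq, which encodes polymerase theta, averaged 115 ± 36.6 CPM in vector and 108 ± 33 CPM in ELOF1 cells, and 81.3 ± 22.1 CPM in cKO and 87.2 ± 19.1 CPM in WT cells. Lig3, the ligase of this route, had the smallest unadjusted p of the members in spleen at day 3.5. It was at 76.3, 90.6 and 85.6 CPM in cKO and 72.8, 74.4 and 75.5 CPM in WT libraries, with no overlap. Its log2 fold change was 0.18 ± 0.085 (adjusted p = 0.367 in edgeR), and it was -0.09 when libraries were scaled by the fly spike-in. At day 2.5 Lig3 was at 91.1, 82.9, 89.1, 84.6 and 76.6 CPM in cKO and 82.3, 79.6, 76.7, 80.0 and 73.5 CPM in WT libraries, and these groups overlapped. Lig3 shares 25.1% of its exon bases with Rffl on the opposite strand, and the use of strand in counting is not given. Xrcc1 and Rbbp8, which encodes CtIP, had log2 fold changes between -0.31 and 0.25. Of the 5 genes, 3 were positive at CH12F3 day 1.5 and 4 at spleen day 2.5. At spleen day 3.5 Xrcc1 and Polq were negative and the others positive.

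Of the other factors of switching, none passed edgeR's test on a single day in that fit. Ercc6l2 and Hmces were called under some of the other settings tried. Ercc6l2 encodes a helicase-like protein of the SNF2 family that is known in the orientation of switch joins (chr13:63815240-63900302 in mm10). At CH12F3 day 1.5 it was at 272, 339, 200 and 341 CPM in vector and 124, 163, 193 and 276 CPM in ELOF1 libraries 1 to 4. The groups overlapped, although each vector library was above the ELOF1 library of the same number. The log2 fold change was 0.65 ± 0.26 (adjusted p = 0.286 in edgeR), and it was 1.069 ± 0.20 within the first series of library numbers and 0.20 ± 0.36 within the second. At day 3 it was at 212.3 and 364 CPM in vector and 181 and 301 CPM in ELOF1 libraries, and at day 7 at 222.3 and 322 CPM in vector and 196 and 252 CPM in ELOF1 libraries. The fold changes there were 0.26 ± 0.36 and 0.28 ± 0.36. In spleen the sign was the other way. At day 2.5 Ercc6l2 was at 228.5, 208.003, 216.2, 389 and 252 CPM in cKO and 246, 253, 257, 578 and 349 CPM in WT libraries, with library 4 highest in both groups. At day 3.5 it was at 215.9, 274 and 204 CPM in cKO and 291, 270 and 298 CPM in WT libraries. The log2 fold changes were -0.34 ± 0.14 (adjusted p = 0.199 in edgeR) and -0.31 ± 0.18 (adjusted p = 0.518). Each cKO library at day 2.5 was below the WT library of the same number, as were 7 of 8 over both days. As a set the numbers do not pair the spleen libraries, although libraries 4 and 5 of day 2.5 deviated together between genotypes (r = 0.83 over genes). The difference between the systems was not tested.

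Hmces (chr6:87913935-87936629) in spleen at day 2.5 was at 1.78, 2.16, 2.13, 4.11 and 6.66 CPM in cKO and 1.69, 1.52, 0.8294, 1.65 and 2.40 CPM in WT libraries. These are 19 to 105 counts per cKO library and 9 to 29 per WT library. Its log2 fold change of 0.95 ± 0.27 (adjusted p = 0.0532 in edgeR) did not pass, while DESeq2 called it (0.97, adjusted p = 0.0189), and the 2 highest cKO libraries, 4 and 5, were those of the first library series. Within that series the log2 fold change was 1.39, and within the second it was 0.58 ± 0.35. At day 3.5 the groups overlapped, at 1.38, 1.81 and 2.45 CPM in cKO and 1.47, 1.62 and 1.87 CPM in WT libraries. Zmynd8, a chromatin reader known to act at the heavy chain enhancer, averaged 244 ± 30.4 CPM in vector and 246 ± 50.2 CPM in ELOF1 cells at day 1.5 (SD, n = 4 each), and 167 ± 33.9 CPM in cKO and 170 ± 24.3 CPM in WT cells at day 2.5 (n = 5 each).

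**Figure D3:**
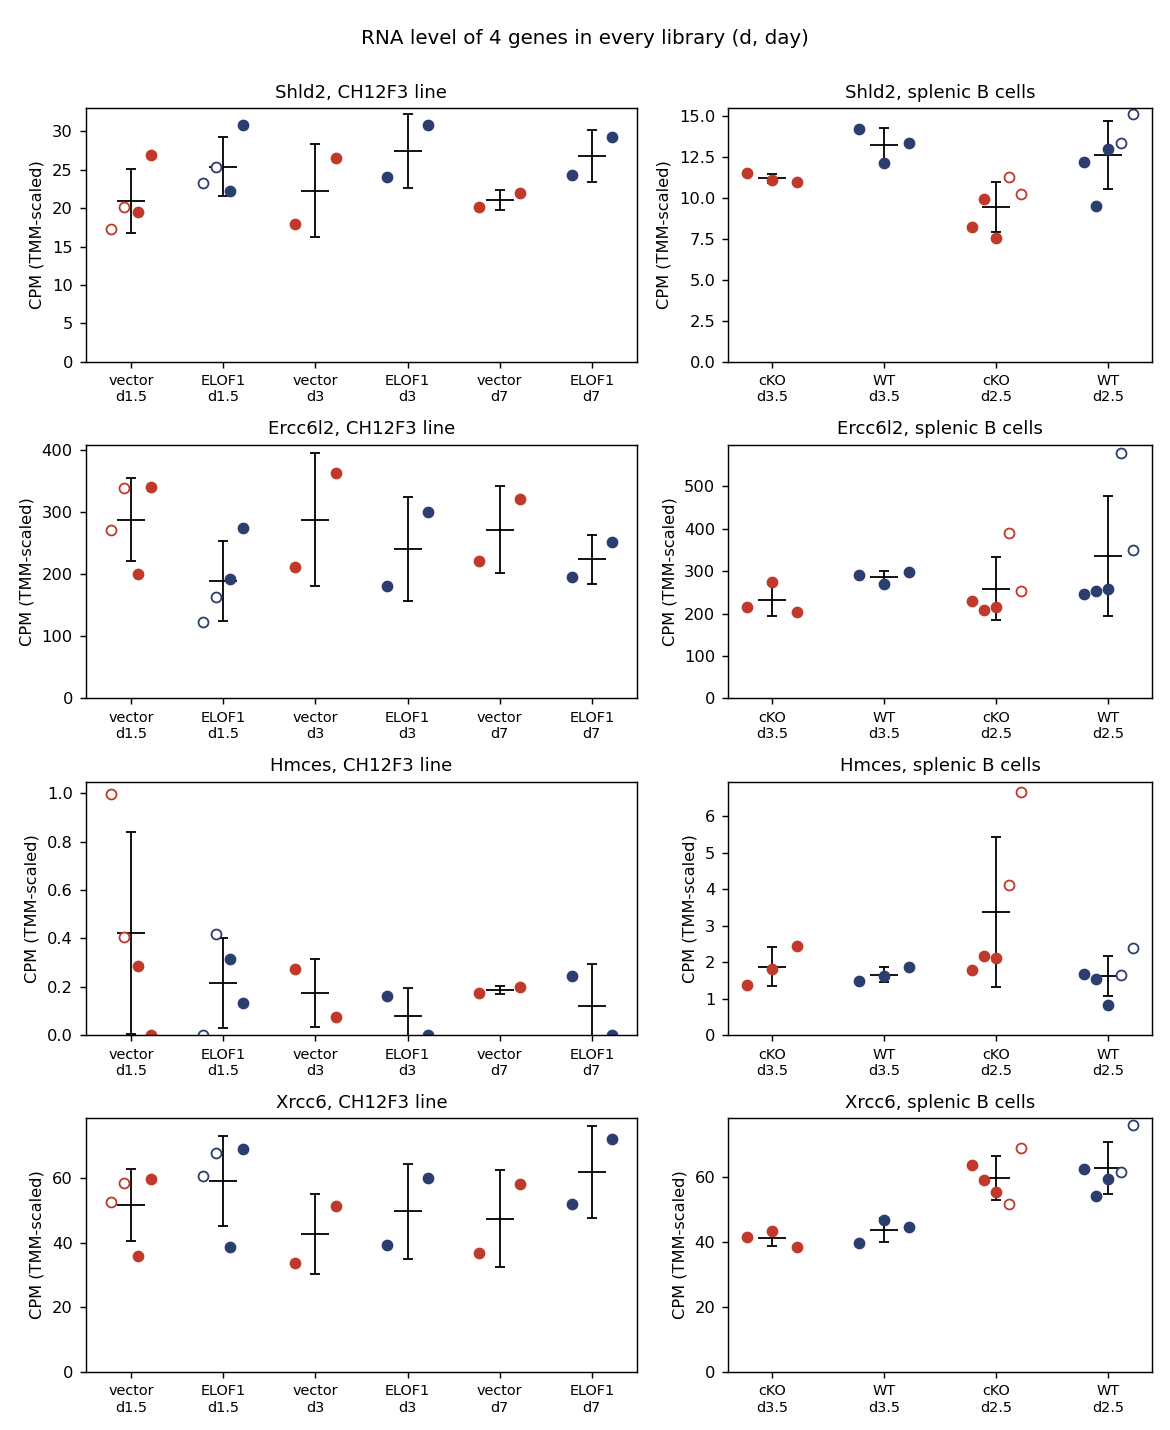
CPM of Shld2, Ercc6l2, Hmces and Xrcc6 in every library, ELOF1-deficient in red and ELOF1-proficient in blue, with open circles for the first series of library numbers. Horizontal bars are group means and error bars are SD, cut at 0. Shld2 was lower in deficient cells, at 7.59 to 11.3 CPM in cKO and 9.5 to 15.1 CPM in WT libraries at day 2.5, and Xrcc6 was lower at day 3.5 than at day 2.5 in spleen.

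In CH12F3, libraries of the same replicate number deviated together, so a fit with the number as a block is given beside the fit above. From group and series means, r was 0.487 to 0.667 over genes. From group means alone, which leave the difference between library series in, it was 0.487 to 0.774. With the block, 2 of 35 members passed at day 1.5, against 8.6% of all genes. Ercc6l2 was higher in vector cells, with a log2 fold change of 0.63 ± 0.13 (adjusted p = 0.00617 in edgeR). Polm, named for this call, was higher by 0.48 ± 0.14 (adjusted p = 0.0482). Polm was at 15.3, 19.6, 17.2 and 15.8 CPM in vector and 7.74, 15.4, 15.4 and 10.7 CPM in ELOF1 libraries at day 1.5, and the lowest vector library lay just under the 2 highest ELOF1 libraries. At day 3 and day 7, 0 of 35 passed with the block, against 0.246% and 0.493% of all genes. Averaged over the 3 days, 5 of 35 passed, against 13.2% of all genes. Shld2 was lower by a log2 fold change of -0.31 ± 0.07 (adjusted p = 0.0075), H2afx by -0.21 ± 0.05 (adjusted p = 0.00675) and Xrcc6 by -0.27 ± 0.05 (adjusted p = 0.00277). Ercc6l2 (0.38, adjusted p = 0.0136) and Polm (0.34, adjusted p = 0.0407) were higher. Over the 8 pairs of same-numbered libraries, the ratio of vector to ELOF1 was above 1 in 8 for Ercc6l2 and 7 for Polm. It was below 1 in 8 of 8 for Shld2, H2afx and Xrcc6. These 5 members are those called with the block on the same pairs, so the ratios are not separate support. Lig3, which was not called, was also above 1 in 8 of 8 pairs, and Shld1 and Polq were in 7 of 8. H2afx was at 422, 326, 342 and 413 CPM in vector and 442, 376, 394 and 447 CPM in ELOF1 libraries at day 1.5, so the differences within pairs were smaller than the range within a group. With the block, as without it, the members' share was near or below that of all genes.

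**Figure D4:**
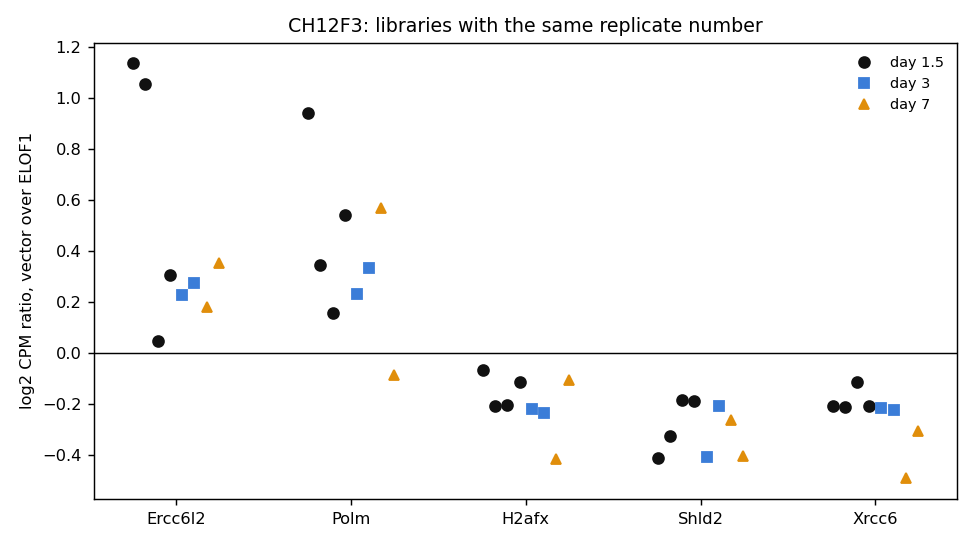
Log2 ratio of CPM in the vector library over the ELOF1 library of the same replicate number, for 5 members in CH12F3 at days 1.5, 3 and 7 (8 pairs). All 8 ratios are above 0 for Ercc6l2 and 7 of 8 for Polm, and all 8 are below 0 for Shld2, H2afx and Xrcc6. The 5 members were chosen because the fit with the block called them on these pairs.

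Across culture days in spleen, Xrcc6, the gene of the Ku70 subunit that rings broken ends (chr15:81987835-82040085), was lower at day 3.5 than at day 2.5 in both genotypes. In cKO cells it was at 41.4, 43.3 and 38.5 CPM at day 3.5, against 63.7, 59.0, 55.4, 51.6 and 68.8 CPM at day 2.5. In WT cells it was at 39.6, 46.9 and 44.6 CPM at day 3.5, against 62.4, 54.2, 59.5, 61.6 and 76.2 CPM at day 2.5. The days did not overlap in either genotype. The log2 fold change was -0.49 ± 0.12 in cKO cells (adjusted p = 0.0295 in edgeR) and -0.47 ± 0.12 in WT cells (adjusted p = 0.0315). Xrcc6 was the 1 member of 36 called in each genotype. Of all genes, 3.4% were called in cKO cells, with 0.688% lower, and 5.45% in WT cells, with 1.28% lower. At an unadjusted p under 0.05, 5 members passed in cKO cells (15.8% of all genes) and 2 in WT cells (18.3%). The days did not overlap for 8 members in cKO cells (15.4% of all genes) and 5 in WT cells (14.6%). The call was lost in cKO cells without library 1, 2 or 3 of day 2.5 or any library of day 3.5, and in WT cells without library 1 or 3 of day 2.5 or any library of day 3.5. Over all alternatives the fold change stayed between -0.71 and -0.44 in cKO cells and between -0.57 and -0.41 in WT cells, with adjusted p from 0.00101 to 0.384 and from 0.00469 to 0.549. Xrcc6 shares 7.69% of its exon bases with Desi1 on the opposite strand.

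WT libraries 1 to 3 of the same number also deviated together across days, but weakly (r = 0.222 to 0.282 over genes). Libraries 4 and 5 of day 2.5 have no partner at day 3.5. With the number as a block 4 of 36 members passed, against 15.7% of all genes. Xrcc6 was lower at day 3.5 by a log2 fold change of -0.42 ± 0.09 (adjusted p = 0.00589 in edgeR), Chek1 by -0.41 ± 0.11 (adjusted p = 0.0181) and H2afx by -0.41 ± 0.09 (adjusted p = 0.00509). Zmynd8 was higher by 0.23 ± 0.07 (adjusted p = 0.0398). Chek1 was at 23.4, 22.4 and 22.8 CPM in WT libraries at day 3.5, against 31.3, 29.5, 30.1, 35.2 and 45.8 CPM at day 2.5, with no overlap. In cKO cells Chek1 was at 23.5, 29.4 and 23.8 CPM at day 3.5, against 34.0, 30.7, 30.5, 38.0 and 46.7 CPM at day 2.5. Negative fold changes were found for 9 of 11 signalling genes in each genotype, for 5 of 5 alternative end joining genes in cKO cells and for 4 of 5 in WT cells. The other arms did not share this in WT cells. Trp53bp1, Shld1, Shld2, Mad2l2 and Paxip1 were positive there (0.10 to 0.20), while Rif1 and Pagr1a were negative. Of the classical genes, Prkdc, Dclre1c, Xrcc4 and Nhej1 were positive and the others negative. Of all 13367 genes tested, 6698 had a negative fold change in cKO cells and 6555 in WT cells. Cell cycle genes are given beside these. All 20 of the 20 G2 and mitosis genes had negative fold changes in each genotype, with a median log2 fold change of -0.24 in cKO cells (2 called) and -0.32 in WT cells (6 called). Of 20 S phase genes, 19 had negative fold changes in cKO cells (0 called, with 5 at an unadjusted p under 0.05) and 18 in WT cells (2 called). Their part in the fall of Xrcc6 was not tested. The test of whether the genotype difference changed between these days called 0 of all genes tested, members included, in edgeR or DESeq2. In edgeR 2.08% of all genes had an unadjusted p under 0.05.

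In CH12F3 cells with ELOF1, 0 of 35 members passed at day 3 or day 7 against day 1.5, where 0.00704% and 0.0493% of all genes did. By DESeq2 the members called were also 0, against 0.162% and 0.683% of all genes. At an unadjusted p under 0.05, 4.21% and 7.6% of all genes passed. Of the members, 3 did so at day 3 and 4 at day 7, and these included Xrcc4, which was lower on both later days by a log2 fold change of -0.67, at 4.28 ± 0.924 CPM at day 3 and 4.31 ± 1.14 CPM at day 7 (SD, n = 2 each), against 7.22 ± 0.68 CPM at day 1.5 (n = 4).

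The members span long stretches of genome, and the relation of fold change to that length is one chosen after the values were seen. The median span from start to end of the gene was 44.8 kb for the 36 members tested in spleen, against 17.7 kb for all genes tested. The longest were Xrcc4 at 316 kb, Prkdc at 204 kb and Nhej1 at 158 kb, and the shortest was H2afx at 1.38 kb. Ercc6l2 spans 85.1 kb and Shld2 73.5 kb. The span runs from the first to the last exon base of any transcript in the count table, so that it includes, for Xrcc6, the stretch before its RefSeq start. In spleen, longer members had lower fold changes, with a Spearman's rho of -0.466 across 36 genes at day 2.5 and -0.624 at day 3.5, against -0.226 and -0.163 across all 13367 genes tested. In CH12F3, rho was 0.198 at day 1.5, -0.0457 at day 3 and -0.0866 at day 7 across 35 members, against -0.126, -0.0701 and -0.183 across all 14201 genes. These are correlations across genes of the same libraries, which are not independent replicates, and they are given as a description. Within the second library series the spleen value was -0.222 at day 2.5 and -0.622 at day 3.5. The 5 members of at least 100 kb had a median log2 fold change of -0.03 in spleen at day 2.5 and -0.10 at day 3.5, against -0.13 and -0.15 for the 1282 genes that long.

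**Figure D5:**
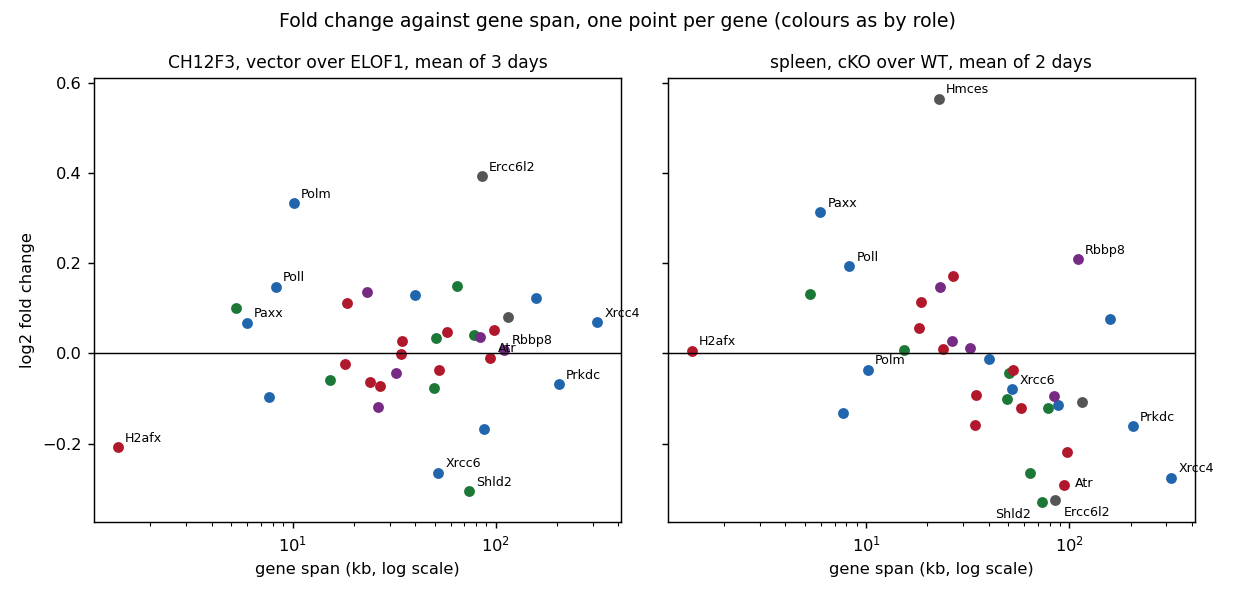
Log2 fold change averaged over days against gene span (log axis) for the members, vector over ELOF1 in CH12F3 on the left and cKO over WT in spleen on the right. Points fall with span in spleen (Spearman's rho -0.578 across 36 genes), and no such trend is seen in CH12F3 (rho 0.0557 across 35 genes).

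Other genes of these routes, 46 in all and 45 tested in each system, were described as a wider setting. In spleen, 1 of 45 passed on each day, against 5.18% of all genes at day 2.5 and 2.07% at day 3.5. Both times this was Babam2, which encodes a subunit of the BRCA1-A and BRISC deubiquitinase complexes. At day 2.5 it was at 29.4, 29.0, 32.3, 27.8 and 22.7 CPM in cKO and 40.4, 37.5, 41.9, 41.6 and 32.5 CPM in WT libraries, which did not overlap but nearly met at 32.3 and 32.5 CPM. At day 3.5 it was at 24.3, 26.7 and 30.7 CPM in cKO and 48.0, 50.3 and 47.8 CPM in WT libraries, well apart. It fell by 0.46 ± 0.09 on the log2 scale at day 2.5 (adjusted p = 0.00878 in edgeR) and by 0.84 ± 0.12 at day 3.5 (adjusted p = 0.00183). Within the second library series the day 2.5 value was -0.41 (adjusted p = 0.0157), and within the first it was -0.57 (adjusted p = 1). Leaving out any 1 library kept both calls. In CH12F3 the Babam2 fold changes were -0.33, -0.16 and -0.30 and did not pass without the block, with which the day 1.5 value of -0.33 did (adjusted p = 0.0242). Babam2 was at 20.3, 27.8, 27.6 and 30.3 CPM in vector and 26.1, 34.1, 36.1 and 37.1 CPM in ELOF1 CH12F3 libraries at day 1.5, and these groups overlapped. Averaged over the spleen days, Lig1, the replicative DNA ligase, rose by 0.21 ± 0.06 on the log2 scale (adjusted p = 0.0386 in edgeR). With fly spike-in scaling it was -0.015 (adjusted p = 0.96). Averaged over the CH12F3 days, Kat5, the TIP60 acetyltransferase that activates ATM, was at a log2 fold change of -0.30 ± 0.07 (adjusted p = 0.0442). The calls of Lig1 and Kat5 were each lost without some single libraries, with adjusted p over the alternatives of 0.00731 to 0.96 and 0.00983 to 0.164. Of the 45 genes, 0 passed on any single CH12F3 day in edgeR, where 4, 2 and 0 had an unadjusted p under 0.05. Of all genes, 1.15%, 0.00704% and 0.0352% passed on these days, and 13.4%, 4.15% and 5.7% had an unadjusted p under 0.05.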

How the data were processed

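The data are 32 strand-specific RNA-seq libraries after ribosomal RNA depletion, 16 per system, with fly S2 polyA RNA added per cell, per the labels' protocols. The deposited tables hold raw counts per gene by featureCounts after Bowtie2 alignment to mm10 and dm6, per the submitters' processing notes. The sources used here give neither versions nor the use of strand in counting. A deposited column of exon length in bases (other unit) was used for TPM. Samples were grouped by their titles. Fly counts (17509 genes) were kept apart.

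Mouse counts were tested with edgeR 4.0.16 (R 4.3.3): filterByExpr (minimum count 10), TMM, quasi-likelihood, 1 fit per system with terms for group and for library series. Library numbers 15 to 22 (8 libraries) were the first series and 208 to 231 (24) the second. What sets the series apart is not stated. Adjusted p-values are Benjamini-Hochberg over all mouse genes tested (14201 and 13367), with a threshold of 0.05. CPM are TMM-scaled, and log2 ratios of CPM use a pseudocount of 0.5. The fit was tested on simulated data. DESeq2 1.42.0 and other settings were tried as alternatives. Figures used Python 3.11.15 and matplotlib 3.10.9. No 2 libraries agreed within sampling noise.

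Same-numbered libraries were taken as paired where, with at least 3 pairs, every correlation of their deviations was over 0.1. From group and series means, r was 0.563 and 0.629 for CH12F3 at day 1.5, and 0.667 and 0.487 at days 3 and 7. Across days r was 0.222 to 0.282 for WT spleen. Spleen genotypes (-0.327 to 0.83) and cKO days (-0.0346 to 0.293) were not paired. From group means alone, r at spleen day 2.5 was 0.413 to 0.846, with both library series in it. CH12F3 days were not fitted with a block.

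Members and lists were chosen with earlier results of these data known. Values per library are given for members called in a single-day genotype comparison, the member with the smallest unadjusted p in each, and up to 3 called between days; group means are given for 12 further members, and up to 6 other pathway genes called per genotype comparison are named, except 1 that is not reported here. Any other gene is named as an end of a range, for a call with the block, or after its values were seen. Promoter windows are RefSeq's (GRCm38.p6).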

Additional observations from a re-analysis of the deposited data

Results flagged for a closer look

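A library was listed when its gap to the nearest library of its group exceeded Dixon's 95% critical value, in groups of 4 or 5 libraries. Of 142 pairs of member and group, 13 were listed, where chance alone lists about 1 in 20. Of these 13, 8 were in library 4 of the cKO or WT group at day 2.5, both of the first library series. Values are CPM, each followed by the nearest library of the same group. In cKO library 4, Prkdc was at 105.1 (nearest 62.39), Dclre1c, the end-opening nuclease Artemis, at 30.78 (19.52), Ercc6l2 at 389.4 (252.5) and Zmynd8 at 226.5 (161.4). In WT library 4, Prkdc was at 142.7 (67.9), Dclre1c at 37.27 (19.25), Atm at 302.4 (202.5) and Zmynd8 at 212.4 (164.7). These members were high in library 4 of both genotypes.

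In cKO library 5 at day 2.5, Nbn, an MRN subunit gene, was high at 42.09 (33.33) and H2afx was low at 283.3 (615.9). In WT library 3, Shld1 was high at 5.529 (3.315). In CH12F3 at day 1.5, Trp53bp1 was high in vector library 2 at 175 (142.7), and Xrcc4 was low in ELOF1 library 4 at 6.211 (7.445). What sets these libraries apart was not tested.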

How the results depend on the processing

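Values below are numbers of members called. In CH12F3 at day 1.5 the 0 calls became 1 without the filter on low counts (Ercc6l2, against 3.04% of all genes) and 2 with the replicate block, and averaged over 3 days they became 1 without the filter (Ercc6l2, against 4.29%) and 5 with the block. No other CH12F3 count moved under the alternatives run. In spleen at day 2.5 the 1 call became 0 with fly spike-in scaling (0.569% of all genes called), without the series term (1.52%), and in the first (0%) or second (6.65%) library series alone. It became 2 without the filter (Atr and Ercc6l2 lower, 3.76% of all genes), 2 by DESeq2's Wald test (Hmces higher, Shld2 lower, 7.71%) and 3 with the block (Hmces higher, Atr and Ercc6l2 lower, 11.5%). At day 3.5 it was 1 in the second series alone (Ercc6l2, -0.31, adjusted p = 0.042 in edgeR), against 9.38% of all genes. Averaged over spleen days it was 0 with fly scaling (5.78%) and without the series term (4.86%), 2 without the filter (6.84%), 3 by DESeq2 (13.7%), 3 in the second series alone (18.3%) and 5 with the block (19.2%; Lig3 and Rbbp8 higher, Shld2, Atr and Ercc6l2 lower). With the block Ercc6l2 was -0.34 at day 2.5 (adjusted p = 0.017 in edgeR) and -0.33 averaged over days (adjusted p = 0.00345), but the spleen genotype numbers as a set do not pair the libraries. Of these, libraries 4 and 5 of day 2.5 did deviate with the same number of the other genotype (r = 0.83). Between days, the WT count was 0 with fly scaling (1.17% of all genes), 2 with DESeq2 size factors (5.28%), 2 by DESeq2 (7.84%), 4 in the second series (15.6%) and 4 with the block. The cKO count was 0 with fly scaling (0.396%), 2 by DESeq2 (6.01%), 3 in the second series (13.1%) and 3 with the block (13.3%; Xrcc5, H2afx and Xrcc6 lower), whose numbers do not pair the libraries either. The block changed no other count.

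Leaving out 1 library gave 0 to 1 calls in spleen at day 2.5, 0 to 2 averaged over days, 0 to 2 between WT days and 0 to 2 between cKO days, and 0 in every CH12F3 comparison. Without WT library 1 the call at day 2.5 was Hmces (1.10, adjusted p = 0.0472 in edgeR) in place of Shld2. Among the named genes recomputed under every alternative, the sign turned in 6 cases. Lig1, called averaged over spleen days, was -0.015 with fly scaling. The others had no call: Xrcc1 at CH12F3 day 1.5 was 0.030 in the second series, Lig3 with fly scaling was -0.094 at spleen day 3.5 and -0.060 averaged over days, Rnf8 with fly scaling was -0.039 averaged over spleen days, and Polq at day 3 over day 1.5 was -0.17 without the series term. The cause was not tested.

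Fly scaling moved the median log2 fold change of all genes to -0.19 at CH12F3 day 3, -0.14 at day 7, -0.14 at spleen day 2.5, -0.29 at day 3.5 and -0.22 between cKO days. The median of members moved to -0.20, -0.10, -0.16, -0.34 and -0.29 in the same order. Fly scaling turned the sign of 9 to 15 members per genotype comparison, all with log2 fold changes of at most 0.193 in size under TMM, and of 18.4% to 35.5% of all genes. At spleen day 3.5, for example, Poll was then -0.14, Rbbp8 -0.10, Chek1 -0.10, Nhej1 -0.16 and Hmces -0.11. Shld2 at spleen day 2.5 was then -0.57, and all genes called were 26 higher and 50 lower, against 377 and 316 with TMM. The relation to gene span under other fits was an alternative added after the values were seen. With 2 libraries a group at CH12F3 days 3 and 7, the fit assumes that they vary like the others, and low-count members (Hmces, Lig4, Nhej1, Shld1) have the widest intervals.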
